A study of Mus musculus with 41 samples.

Results

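The genes described here are 10 immediate early and AP-1 genes, Fos, Fosb, Fosl2, Jun, Junb, Jund, Atf3, Egr1, Ier2 and Nr4a1, out of 21728 protein-coding genes whose promoters could be read in the mouse peak lists. They were chosen by name, with earlier results of these data known, and the rule used no measured value. For every gene, peaks were sought at the promoter, defined as 2000 bp on each side of every annotated transcription start site (TSS), and in the gene body with 20 kb on each side. The lists came from CUT&Tag, in which an antibody guides a transposase to cut DNA beside a histone mark, and covered 4 marks: lactylation of histone H3 lysine 18 (H3K18la) in 8 cell types, H3K27ac in 5, H3K4me3 in 4 and H3K27me3 in 7. The 41 samples formed 24 groups, 17 with 2 samples and 7 with 1, and each group had 1 peak list made after its replicates were pooled. Error between replicates could therefore not be measured, and each SD below is taken across cell types.

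The stem cells were E14 mouse embryonic stem cells grown in serum with LIF (mESC-ser) or with LIF and inhibitors of MEK and GSK3 (mESC-2i). Muscle was represented by primary myoblasts (MB), the myotubes derived from them (MT) and snap-frozen gastrocnemius muscle (GAS). Macrophages were derived from bone marrow with M-CSF (BMDM) or sorted by surface markers from calf muscle made ischemic by ligation of the femoral artery and digested with enzymes (PIM). Adipocyte nuclei (ADIPO) were captured on streptavidin beads from epididymal fat of AdipoCre-NuTRAP mice, in which Cre activity in fat cells tags the nuclear membrane. The mice are given as females on a C57BL/6 background, young adults by the study's methods, and all samples carry the same control treatment label. For ADIPO the methods name both female mice and epididymal fat, a male depot, and this conflict cannot be settled here. Only the 2 kinds of stem cell went into the assay as whole cells, with nuclei used for the remaining 6, so this step cannot be told apart from being a stem cell. The lists that rest on 1 sample are all those of MB and BMDM, and H3K27ac in mESC-ser and PIM.

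Immediate early genes are switched on within minutes of a growth factor, stress or depolarisation signal, without new protein synthesis. Fos and Jun family proteins pair through leucine zippers to form AP-1, which binds DNA as a transcription factor. Serum response factor (SRF) acts on many of these genes through CArG boxes, and CREB acts through cAMP response elements. H3K4me3 marks promoters, H3K27ac marks active promoters and enhancers, and H3K27me3 is laid down by Polycomb at repressed genes. H3K18la is a lysine acylation that depends on cellular lactate.

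On build mm10 (GRCm38), Fos lies at chr12:85473890-85477273, Fosb at chr7:19302696-19310051 and Fosl2 at chr5:32135801-32157842. Jun lies at chr4:95049034-95052222, and Junb and Jund lie on chromosome 8 at chr8:84974484-84978718 and chr8:70698949-70700616, as does Ier2 at chr8:84661331-84662852. Atf3 spans chr1:191170296-191218039, Egr1 chr18:34859823-34864984 and Nr4a1 chr15:101254269-101274795. Jun, Jund and Ier2 have 1 annotated TSS each, whereas Fosb has 4 and the others have 2 or 3. Distances below are from the most downstream start of a protein-coding transcript, with negative values upstream.

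The lists held 11002 to 36813 peaks that covered 22.6 to 197 Mb, and they carry no read depth. H3K18la was called at all 5 fixed stem cell marker promoters in both stem cell lists, at all 5 macrophage markers in BMDM and PIM, at all 5 adipocyte markers in ADIPO and at 5, 4 and 2 of 5 muscle markers in MT, GAS and MB. Markers of other cells were called with H3K18la as well, 5 of 5 endothelial and 4 of 5 fibroblast markers in GAS, 4 of 5 fibroblast markers in ADIPO and 4 of 5 neutrophil markers in PIM, although PIM were sorted for CD45, CD11b, F4/80 and CD64, a macrophage gate meant to leave neutrophils out. The share of all promoters called with H3K18la was 36.1% in GAS, 44.7% in ADIPO and 37.8% in PIM. H3K27ac was called at 2 of 5 endothelial and 2 of 5 fibroblast markers in GAS, at 3 of 5 fibroblast markers in ADIPO and, like H3K4me3, at 2 of 5 neutrophil markers in PIM. H3K4me3 was called at 5 of 5 endothelial and 5 of 5 fibroblast markers in GAS, beside 64.2% of all promoters. Of 5 adipocyte markers in PIM, H3K18la was called at 3, H3K4me3 at 3 and H3K27ac at 1. Where cell types are mixed, fewer cells of a type and less mark per cell cannot be told apart, and the part these cells had in the peaks below was not tested.

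The letters upstream of several of these starts are shown because they hold the elements counted in the next paragraph. H3K18la peaks did not cover them in every list, and in MB the peaks beside Junb and Ier2 left these stretches free. The sequences were read from the GRCm38 genome, with matches to the CArG box, to TGACG (the core of the cAMP response element, on either strand) and to TATAAA in capitals. Fos, chr12:85473570-85473869 on the plus strand, 320 to 21 bases before its start, is given with Junb (chr8:84978739-84978863, minus), Jund (chr8:70698719-70698868, plus), Ier2 (chr8:84662873-84662912, minus) and Nr4a1 (chr15:101266606-101266825, plus).
Fos: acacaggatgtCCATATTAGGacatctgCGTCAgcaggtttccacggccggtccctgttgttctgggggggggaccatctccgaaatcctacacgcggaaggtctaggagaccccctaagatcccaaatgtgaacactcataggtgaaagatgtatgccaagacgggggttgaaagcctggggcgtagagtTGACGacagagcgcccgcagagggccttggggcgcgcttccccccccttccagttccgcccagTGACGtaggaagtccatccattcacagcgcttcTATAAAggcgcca
Junb: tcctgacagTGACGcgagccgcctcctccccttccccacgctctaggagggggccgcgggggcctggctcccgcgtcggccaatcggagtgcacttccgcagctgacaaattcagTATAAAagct
Jund: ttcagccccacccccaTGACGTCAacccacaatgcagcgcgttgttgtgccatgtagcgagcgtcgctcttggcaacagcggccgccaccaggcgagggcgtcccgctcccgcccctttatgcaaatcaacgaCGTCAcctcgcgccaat
Ier2: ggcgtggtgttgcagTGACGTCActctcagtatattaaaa
Nr4a1: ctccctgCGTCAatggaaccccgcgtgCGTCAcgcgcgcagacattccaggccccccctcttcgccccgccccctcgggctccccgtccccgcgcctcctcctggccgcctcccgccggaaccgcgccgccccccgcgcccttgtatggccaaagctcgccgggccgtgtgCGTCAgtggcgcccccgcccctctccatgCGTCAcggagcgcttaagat

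In the 500 bases before the start, TGACG was found in 8 of the 10 genes (all but Fosb and Atf3), against 26.7% of 21719 promoters of the same length. The full element TGACGTCA, which holds TGACG on both strands, was found in Jund and Ier2 and in 2.16% of promoters. The CArG box was found in Fos, with 1 match from -309 to -300, and in Egr1, with 5 matches, against 2.54% of promoters with any and 0.0414% with 2 or more. By the usual criteria of GC content (at least 50%) and observed over expected CpG (at least 0.6), 9 of the 10 were CpG-rich over 300 bases around the start, against 33.4% of promoters. TGACG and TGACGTCA themselves hold a CpG, and their shares among CpG-rich promoters are not given here. H3K18la was called at 12.3% to 63.6% of all CpG-rich promoters, depending on the list. Jun, with a ratio of 0.594, was just under the second criterion. A match describes the letters and does not show that the factor binds.

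H3K18la was called at 74 of 80 promoter and cell type combinations (92.5%). Of the 10 promoters, 10 were called in mESC-ser, mESC-2i, MT, GAS and BMDM and 8 in MB, PIM and ADIPO. The share of all protein-coding promoters called in the same lists was 33.4% in mESC-ser, 37.8% in mESC-2i, 11.1% in MB, 34.8% in MT, 36.1% in GAS, 18.5% in BMDM, 37.8% in PIM and 44.7% in ADIPO. The uncalled combinations were Jund and Nr4a1 in MB, Fosb and Jund in PIM, and Fosb and Nr4a1 in ADIPO. Fos, Fosl2, Jun, Junb, Atf3, Egr1 and Ier2 were called in every one of the 8 lists, as were 583 of the 21728 protein-coding genes. The lists differ in the bases they cover, and when only the peaks of highest total signal were kept, up to 22.6 Mb in each list, 39 of 80 combinations were still called beside 2.31% to 18.5% of all promoters.

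**Figure D1:**
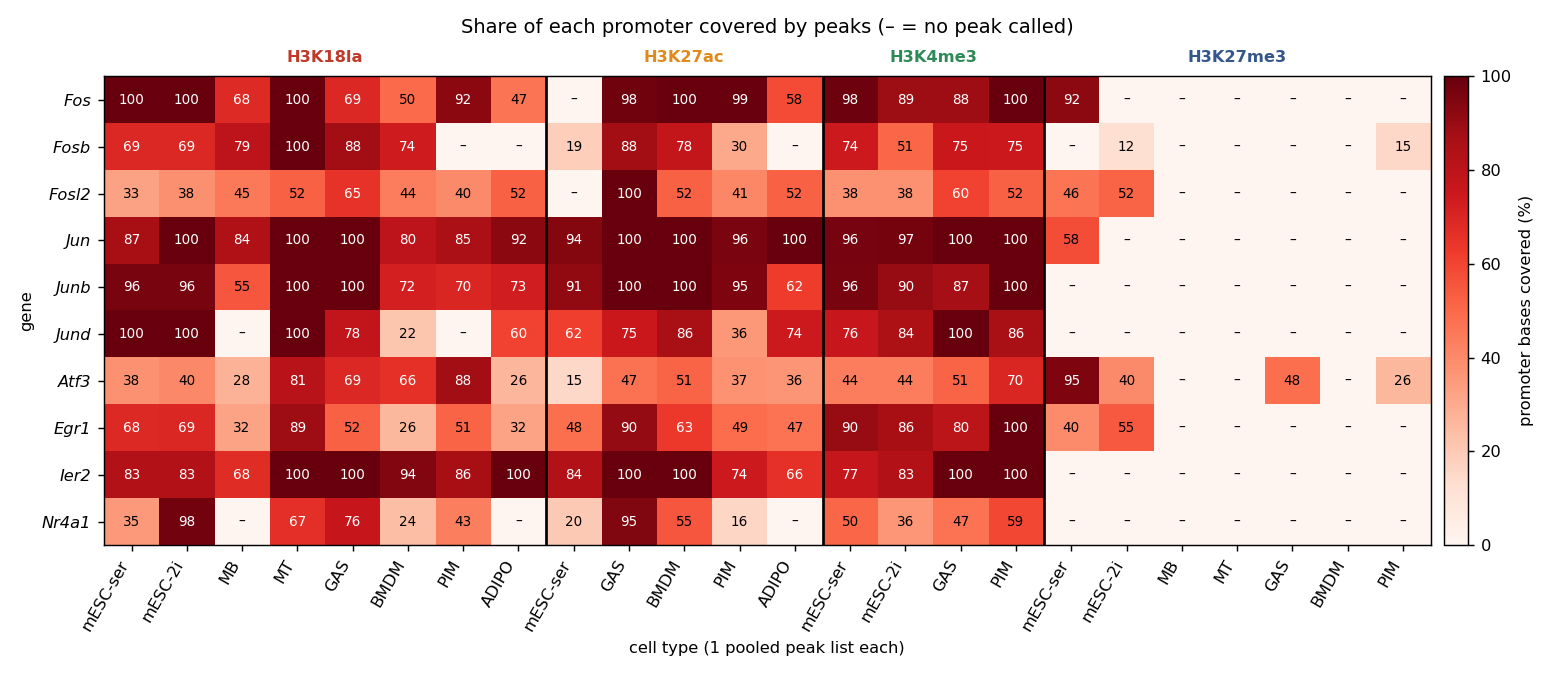
Share of promoter bases covered by peaks (colour and number, %) for the 10 genes (rows) in the 24 peak lists (columns, grouped by mark); a dash means that no peak was called. H3K18la, H3K27ac and H3K4me3 fill most cells, while H3K27me3 fills 12 of 70.

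In the full lists, the other active marks were about as frequent. H3K27ac was called at 46 of 50 combinations, with all 10 promoters in GAS, BMDM and PIM and 8 in mESC-ser and ADIPO, beside 46.9%, 34.0%, 48.7%, 40.2% and 46.1% of all promoters in these lists, in that order. It was not called at Fos or Fosl2 in mESC-ser, nor at Fosb or Nr4a1 in ADIPO, where H3K18la was not called at Fosb or Nr4a1 either. H3K4me3 was called at all 40 combinations, beside 48.8% of all promoters in mESC-ser, 61.8% in mESC-2i, 64.2% in GAS and 59.4% in PIM. Of the 10 genes, 9 were CpG-rich by the criteria above. Among all CpG-rich promoters, H3K4me3 was called at 76.9% in mESC-ser, 93.1% in mESC-2i, 92.7% in GAS and 86.4% in PIM. H3K27ac was called at 51.1% to 73.8% of CpG-rich promoters, depending on the list. The difference of the 10 genes from CpG-rich promoters was not tested.

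The Fos family encodes partners that cannot bind DNA as AP-1 without a Jun protein. At Fos, whose product gives AP-1 its first wave, H3K18la peaks covered 100% of the promoter in mESC-ser, mESC-2i and MT, 92.3% in PIM, 68.9% in GAS, 68.2% in MB, 49.5% in BMDM and 46.7% in ADIPO. Stem cells and myotubes thus stood at the top of the scale and fat at the bottom. Fosb, which also gives rise to the long-lived splice form ΔFosB, was covered by 68.9% to 100% in the 6 lists where it was called. At Fosl2, which encodes Fra-2, the H3K18la share ran from 32.7% in mESC-ser to 65.3% in GAS, with a median of 44.5%. The 3 annotated starts of Fosl2 form 2 separate stretches of promoter, and the downstream stretch, from 8720 to 12720 bp, was called with H3K18la in GAS alone.

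The Jun family can pair with itself as well as with Fos proteins. Jun had the most even H3K18la coverage of its family, from 79.5% in BMDM to 100% in mESC-2i, MT and GAS, with a mean of 90.9% ± 8.31 (SD, n = 8 cell types). Junb ranged from 55.3% in MB to 100% in MT and GAS. Jund, the family member that is least dependent on stimulation, was the most uneven, with 100% in mESC-ser, mESC-2i and MT, 78.0% in GAS, 60.2% in ADIPO, 21.7% in BMDM and no promoter peak in MB or PIM. H3K27ac and H3K4me3 were both called at Jund in PIM, over 35.6% and 85.9% of its promoter, while H3K18la was not.

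Among the other immediate early genes, Ier2, which encodes a small nuclear protein, was covered by 67.6% in MB to 100% in MT, GAS and ADIPO. Egr1, a zinc finger factor, was covered by 26.0% in BMDM to 88.6% in MT. H3K4me3 at Egr1 covered 79.8% to 100%, and it exceeded H3K18la in each of the 4 cell types with both marks. Egr1 has a second annotated start at the first base of the gene, which lay under the H3K18la peak in all 8 lists. In MB, GAS, BMDM, PIM and ADIPO that peak ended at -663 to -580 bp and did not reach the downstream start, which in BMDM lay under a separate H3K18la peak from -472 to 14 bp, whereas in the 2 stem cell lists and MT it ran past the downstream start by 1257 to 2464 bases. Nr4a1, an orphan nuclear receptor, ranged from no promoter peak in MB and ADIPO to 97.5% in mESC-2i, where a peak of 32395 bp held the whole gene.

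Atf3, a stress-induced repressor of the AP-1 and CREB type, has an upstream start whose promoter lies -36699 to -32699 bp from the downstream one. H3K18la was called at the downstream start in 7 of 8 cell types, all but MB, and at the upstream start in MB, MT, GAS, BMDM and PIM. At the upstream start it covered 56.6% in MB, 100% in MT, 56.7% in GAS, 41.0% in BMDM and 74.7% in PIM, and it was not called in the stem cells or ADIPO. H3K27me3 covered 89.8% of the upstream promoter in mESC-ser, 82.6% in mESC-2i and 99.7% in GAS. In both stem cell lists the upstream start thus carried H3K27me3 without H3K18la, while in GAS it carried both. At the downstream start, H3K27me3 covered 100% in mESC-ser and 50.2% in PIM and was not called elsewhere.

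The strength of a peak was compared only within its list, as the percentile of its total signal, which is summed over the width of the peak, because the deposited signal is not scaled for depth. Over the 74 called combinations the H3K18la promoter peak had a median percentile of 89.9, and the medians per list were 98.0 in MT, 95.7 in GAS, 92.2 in PIM, 89.1 in BMDM, 87.4 in mESC-2i, 79.8 in mESC-ser, 72.9 in ADIPO and 68.5 in MB. The median of all promoter peaks was 48.5 to 56.8 in the same lists. For a member with several promoter peaks, the one of highest total signal was used. The median of all promoter peaks took every peak, so the measures are not alike and the choice favours the members. Junb ranked highest by total signal, with a median of 99.2 and a lowest value of 81.9 in ADIPO. Its peak in mESC-ser was the number 166 of 19057, and in BMDM the number 137 of 19571. By the highest signal within the peak, Junb ran from percentile 66.3 in ADIPO to 97.3 in GAS. Egr1 ranked lowest by total signal, with a median of 66.6, and in MB its peak stood at percentile 0.125, number 13534 of 13550. The order of the genes was taken by total signal only. Ier2 in MB was also near the bottom of its list by total signal (percentile 3.68), while in the other 7 cell types it ran from 83.4 to 97.6. By the highest signal within the peak, which does not add up over its width, Ier2 in MB stood at percentile 54.8 and Egr1 in MB at 23.5.

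**Figure D2:**
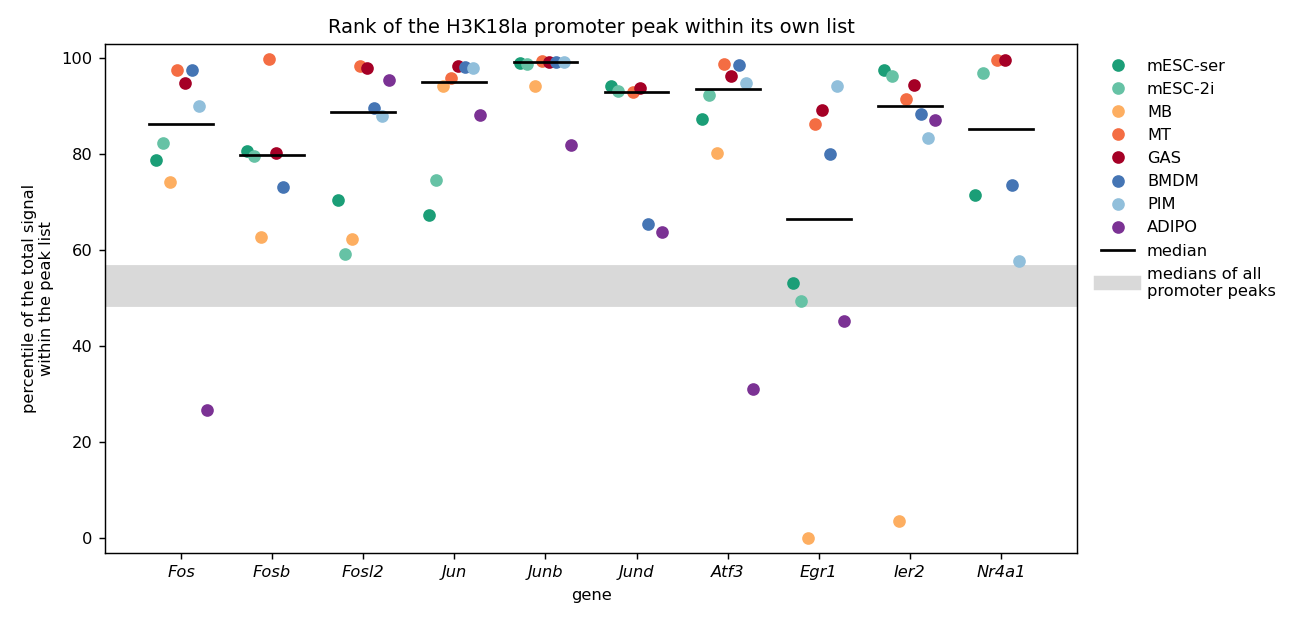
Percentile of the total signal of the H3K18la promoter peak within its own list (vertical axis) for each gene (horizontal axis), with a point per cell type, a black line at the median and a grey band from the lowest to the highest list median of all promoter peaks (48.5 to 56.8). Junb points lie at 81.9 or above, and the Egr1 and Ier2 points in MB lie near the floor.

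The H3K18la promoter peaks were wide for their lists, with median width percentiles from 75.7 in mESC-ser to 95.8 in BMDM. They were picked by total signal, which adds up over width. The H3K18la peak at Junb had a median width of 13122 bp and reached the promoters of Hook2 or Prdx2 in 4 of 8 lists, so signal there belongs to a domain shared with neighbouring genes. Of the 74 H3K18la promoter peaks, 15 held the whole gene body, 6 of them at Ier2, and 8 reached the promoter of another protein-coding gene. No share over all genes is given for these counts. The position of highest signal within the peak varied among cell types by 1610 bp at Fos and by 9063 bp at Junb. At Jun it was nearly fixed, between -1140 and -1136 bp in all 8 H3K18la lists and at -1137 to -1136 bp in all 4 H3K4me3 lists. Of 583 genes called with H3K18la in every cell type, 4 (0.686%) had maxima within 10 bp in all 8 lists, and the median range was 7087 bp. Peak lists do not show how reads mapped at this position. In H3K27ac the maximum at Jun ranged from -1136 to 793 bp. The bases around that point, chr4:95053318-95053398 on the minus strand with the base at -1136 in capitals, are shown because the maximum recurred there in every cell type.
Jun: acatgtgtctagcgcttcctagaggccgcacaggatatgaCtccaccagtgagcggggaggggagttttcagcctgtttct

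H3K27me3 was called at 12 of 70 combinations (17.1%): at Fos, Fosl2, Jun, Atf3 and Egr1 in mESC-ser, at Fosb, Fosl2, Atf3 and Egr1 in mESC-2i, at Atf3 in GAS and at Fosb and Atf3 in PIM. In MB, MT and BMDM it was called at none of the 10. The share of all promoters called was 27.1% in mESC-ser, 22.5% in mESC-2i, 12.6% in MB, 20.1% in MT, 24% in GAS, 19.2% in BMDM and 26.5% in PIM. Junb, Jund, Ier2 and Nr4a1 had no H3K27me3 at the promoter in any list. How many of all genes lacked it in every list is not given here. The count rests largely on the stem cells, and without mESC-ser it was 7. With the 5000 peaks of highest total signal it was 6 (8.57%), beside 8.19% to 17.0% of all promoters, and with lists cut to equal bases it was 1 (1.43%), beside 2.35% to 6.70%.

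In mESC-ser, H3K27me3 lay on the same bases as H3K18la at several of these genes. At Fos, H3K27me3 covered 91.8% of the promoter, and all of its 4611 bp there were also covered by H3K18la, while H3K4me3 covered 98.3% and H3K27ac was not called. At Jun the H3K27me3 share was 57.5%, and all of its 2299 bp were within H3K18la. H3K27me3 at Jun ran from 298 bp before the start to 2565 bp past it, where the H3K27ac share of the promoter was 93.8%. In mESC-2i neither Fos nor Jun had H3K27me3 at the promoter, while H3K18la covered 100% of both. With 1 pooled list per medium, this contrast has no replicate check.

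Fosl2 and Egr1 carried H3K27me3 in both stem cell lists. At Egr1 it covered 39.7% in mESC-ser and 54.6% in mESC-2i, and 2941 bp of it in mESC-2i lay within H3K18la. At Fosl2 the share was 46.1% and 51.5%, but the bases shared with H3K18la were 2227 in mESC-ser and 310 in mESC-2i. H3K4me3, H3K27me3 and H3K18la were all called, over any annotated start, at 5 of the 10 promoters in mESC-ser (6.69% of all genes), at 4 in mESC-2i (4.30%), and at Atf3 alone in GAS (4.02%) and in PIM (5.96%). At Atf3 this count pools its separate starts: H3K4me3 and H3K27me3 shared 0 bp there in mESC-2i and GAS, and H3K18la and H3K27me3 shared 0 bp in mESC-2i. Where marks did share bases, whether they sat on the same nucleosomes or in different cells cannot be read from pooled lists.

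Over the 7 cell types with both marks, promoter coverage by H3K18la was compared with that by H3K27me3 for every gene with a peak of either, by flipping the signs of the paired differences in an exact permutation test (two-sided). The smallest p this design allows is 0.0156, and with Benjamini-Hochberg adjustment over 17724 genes none passed 0.05 (smallest adjusted p 0.191, exact test). Before adjustment, 2981 genes had a p under 0.05, 1543 with H3K18la higher (8.71% of genes tested). All 10 members had a higher mean for H3K18la, as did 59.8% of genes tested (median difference 4.21 points), and 7 of the 10 had an unadjusted p under 0.05. H3K18la was higher in each of the 7 cell types at Fos, Jun, Junb, Egr1 and Ier2, a pattern shown by 2.99% of genes tested.

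The difference was 87.8 ± 11.5 percentage points (SD over 7 cell types) at Ier2, 84.2 ± 18.1 at Junb and 82.5 ± 25.1 at Jun. At these 3 genes the lowest H3K18la share lay above the highest H3K27me3 share, as it did for 2.63% of genes tested. At Fos the difference was 69.6 ± 33.0 points, and the H3K27me3 share of 91.8% in mESC-ser overlapped the range of H3K18la. With lists cut to equal bases, the difference was 30.0 points at Ier2 and 44.3 at Fos, and 1 of the 10 genes was higher in every cell type in place of 5. With the full lists, each of these 4 genes and Egr1 (42.0 ± 24.6 points) had an unadjusted p of 0.0156 and an adjusted p of 0.191 (exact test, n = 7). Fosb (64.3 ± 37.8) and Nr4a1 (49.0 ± 33.3) had an unadjusted p of 0.0312 in the exact test. The differences were smaller or more scattered at Jund (57.1 ± 47.8), Fosl2 (31.4 ± 31.7) and Atf3 (28.6 ± 47.5), with unadjusted exact p-values of 0.0625, 0.0625 and 0.141. At Atf3 the sign was turned in mESC-ser, where H3K27me3 covered 95.0% of the promoters of both starts and H3K18la 37.6%, as it was at Fosl2 in both stem cell lists and at Fosb in PIM, where H3K27me3 covered 15.4% and H3K18la was not called. At the upstream stretch of the Fosl2 promoters, H3K18la covered 62.6% and H3K27me3 88.3% in mESC-ser, but 73.0% and 7.09% in mESC-2i, where H3K27me3 covered 100% of the downstream stretch and H3K18la none of it. With starts of protein-coding transcripts only, the difference at Fosl2 was 70.8 points with an unadjusted p of 0.0312 in the exact test.

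**Figure D3:**
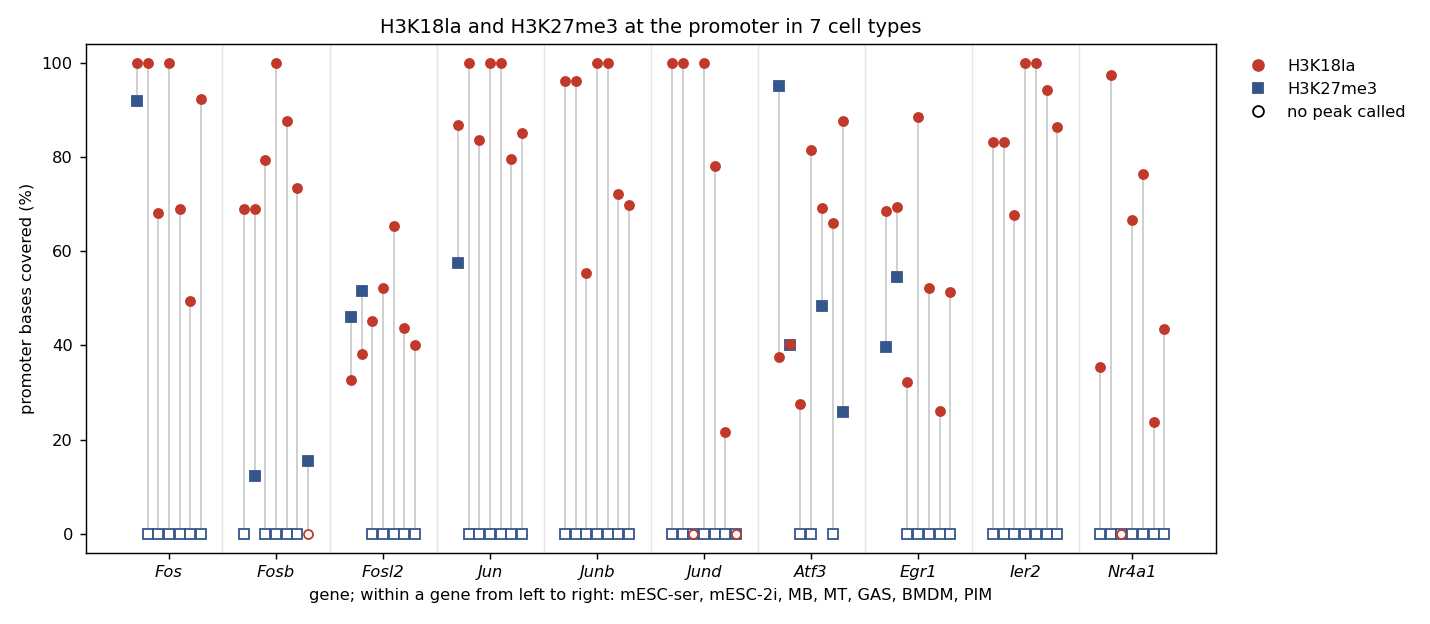
Promoter bases covered (%, vertical axis) by H3K18la (red circles) and H3K27me3 (blue squares) for each gene in 7 cell types, with a grey line joining the marks of a cell type and open symbols where no peak was called. H3K27me3 symbols above 0 are mostly in the 2 leftmost positions of a gene, the stem cells.

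H3K18la and H3K27ac differed less, and with 5 cell types no exact test could pass 0.05 (smallest p 0.0625), nor with the 4 for H3K4me3 (0.125). Averaged over the 10 promoters, H3K18la minus H3K27ac was -1.72 ± 18.7 percentage points (SD, n = 5 cell types), beside -4.03 for all genes with a peak. The value was 27.7 in mESC-ser, -9.59 in GAS, -23.5 in BMDM, -1.75 in PIM and -1.40 in ADIPO, and without mESC-ser the mean was -9.07. The sign of the mean was not stable, since it was 0.359 with starts of protein-coding transcripts only, 0.244 without GAS and 3.73 without BMDM. For all genes with a peak the values by cell type were 5.35, -15.9, -11.3, 1.64 and 0.04 in the same order. In mESC-ser the difference was above 0 at all but Jun and Ier2, with the highest values at Fos (100 points), Fosb (50.2), Jund (38.4) and Fosl2 (32.7). Atf3 had more H3K18la than H3K27ac in 4 of 5 cell types, with 50.5 points in PIM. Jun had as much or less in each of the 5, with a mean of -9.18 ± 7.42.

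H3K18la minus H3K4me3 was -5.28 ± 16.4 points over 4 cell types, beside -10.4 for all genes with a peak. PIM was lowest with -28.6, and it was also lowest for all genes with a peak, at -18.1 beside -12.7 to -2.85 in the other cell types. In PIM, Jund (-85.9) and Fosb (-74.8) had no H3K18la peak at the promoter. H3K18la still covered 15.4% and 26.0% of their gene bodies with 20 kb on each side. Without PIM the mean was 2.49, and with lists cut to equal bases it was -39.2. Egr1 was lower for H3K18la in 4 of 4 cell types, by -16.8 to -48.6 points.

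**Figure D4:**
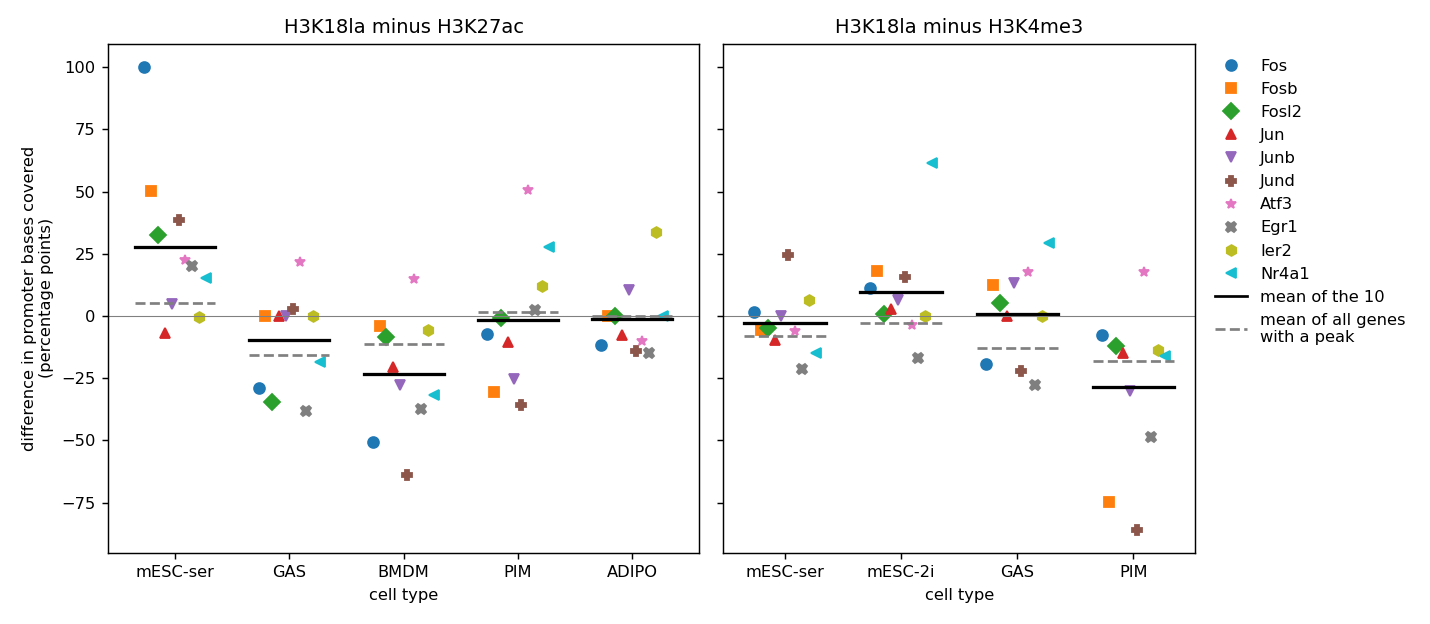
Difference in promoter bases covered (percentage points, vertical axis) between H3K18la and H3K27ac (left, 5 cell types) or H3K4me3 (right, 4 cell types), with a symbol per gene, a black line at the mean of the 10 and a grey dashed line at the mean of all genes with a peak. Fos in mESC-ser lies at 100 on the left, and Jund and Fosb in PIM lie at -85.9 and -74.8 on the right.

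Over gene bodies with 20 kb on each side, promoters included, the median share covered by H3K18la was 41.4% in mESC-2i, 41.1% in GAS, 38.7% in mESC-ser, 38.3% in MT, 21.0% in PIM, 12.4% in BMDM, 12% in ADIPO and 10.3% in MB. The medians over all genes were 0 to 4.21% in these lists. H3K18la and H3K27ac peaks that touched no annotated promoter merged into 38 regions around the 10 genes, of which 22 had such peaks of both marks in any cell type and 20 in the same cell type. Atf3 had 8 of these regions, Fosl2 7 and Jun 1.

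Fos was the only member with such a distal H3K18la peak in all 8 cell types, which 2.37% of all genes had. Nr4a1 had one in 7 and Jund and Atf3 in 6, while Jun and Junb had one in 1, beside a median of 2 over all genes. At Fos, 2 distal stretches were covered in every H3K18la list. The upstream stretch, chr12:85454716-85455773, lay -19174 to -18117 bp from the start. The downstream stretch, chr12:85485428-85486787, lay 11538 to 12897 bp from the start and beyond the end of the gene. Each was also covered by H3K27ac in GAS, BMDM, PIM and ADIPO and by H3K4me3 in 2 of 4 lists, and by H3K27me3 in none. In mESC-ser the whole 43384 bp around Fos held no H3K27ac peak, while H3K18la covered 38.6% of it. The mESC-ser H3K27ac list, from 1 sample, covered 32.0 Mb in all and the H3K18la list 82.4 Mb. The part of this difference in the contrast was not tested.

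The central 300 bases of both stretches are given on the plus strand, which is the strand of Fos, with matches to the CArG box and TGACG in capitals. They are chr12:85455095-85455394 upstream and chr12:85485958-85486257 downstream.
Upstream: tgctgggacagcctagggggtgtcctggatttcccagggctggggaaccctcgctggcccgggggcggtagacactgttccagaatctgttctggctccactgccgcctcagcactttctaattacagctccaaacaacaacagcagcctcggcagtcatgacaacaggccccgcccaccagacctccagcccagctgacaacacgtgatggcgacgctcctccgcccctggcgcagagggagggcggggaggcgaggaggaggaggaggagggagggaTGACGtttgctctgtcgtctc
Downstream: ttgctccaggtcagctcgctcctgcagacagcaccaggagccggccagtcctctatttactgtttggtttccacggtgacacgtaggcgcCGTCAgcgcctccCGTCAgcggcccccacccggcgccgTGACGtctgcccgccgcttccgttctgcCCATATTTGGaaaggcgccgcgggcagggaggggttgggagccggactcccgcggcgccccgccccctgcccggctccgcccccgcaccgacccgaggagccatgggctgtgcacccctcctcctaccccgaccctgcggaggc

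The downstream stretch held 1 CArG box and 3 copies of TGACG, the same pair of motifs as the Fos promoter printed above. The upstream stretch held no CArG box and 1 TGACG. Genome-wide, 202 promoter-free stretches of at least 300 bp were covered in all 8 H3K18la lists. In their central 300 bases, 3 of them (1.49%) held a CArG box, the Fos stretch included, and 35 (17.3%) held TGACG. The AP-1 site, TGANTCA, was found in 27.2% of them and in neither Fos stretch.

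**Figure D5:**
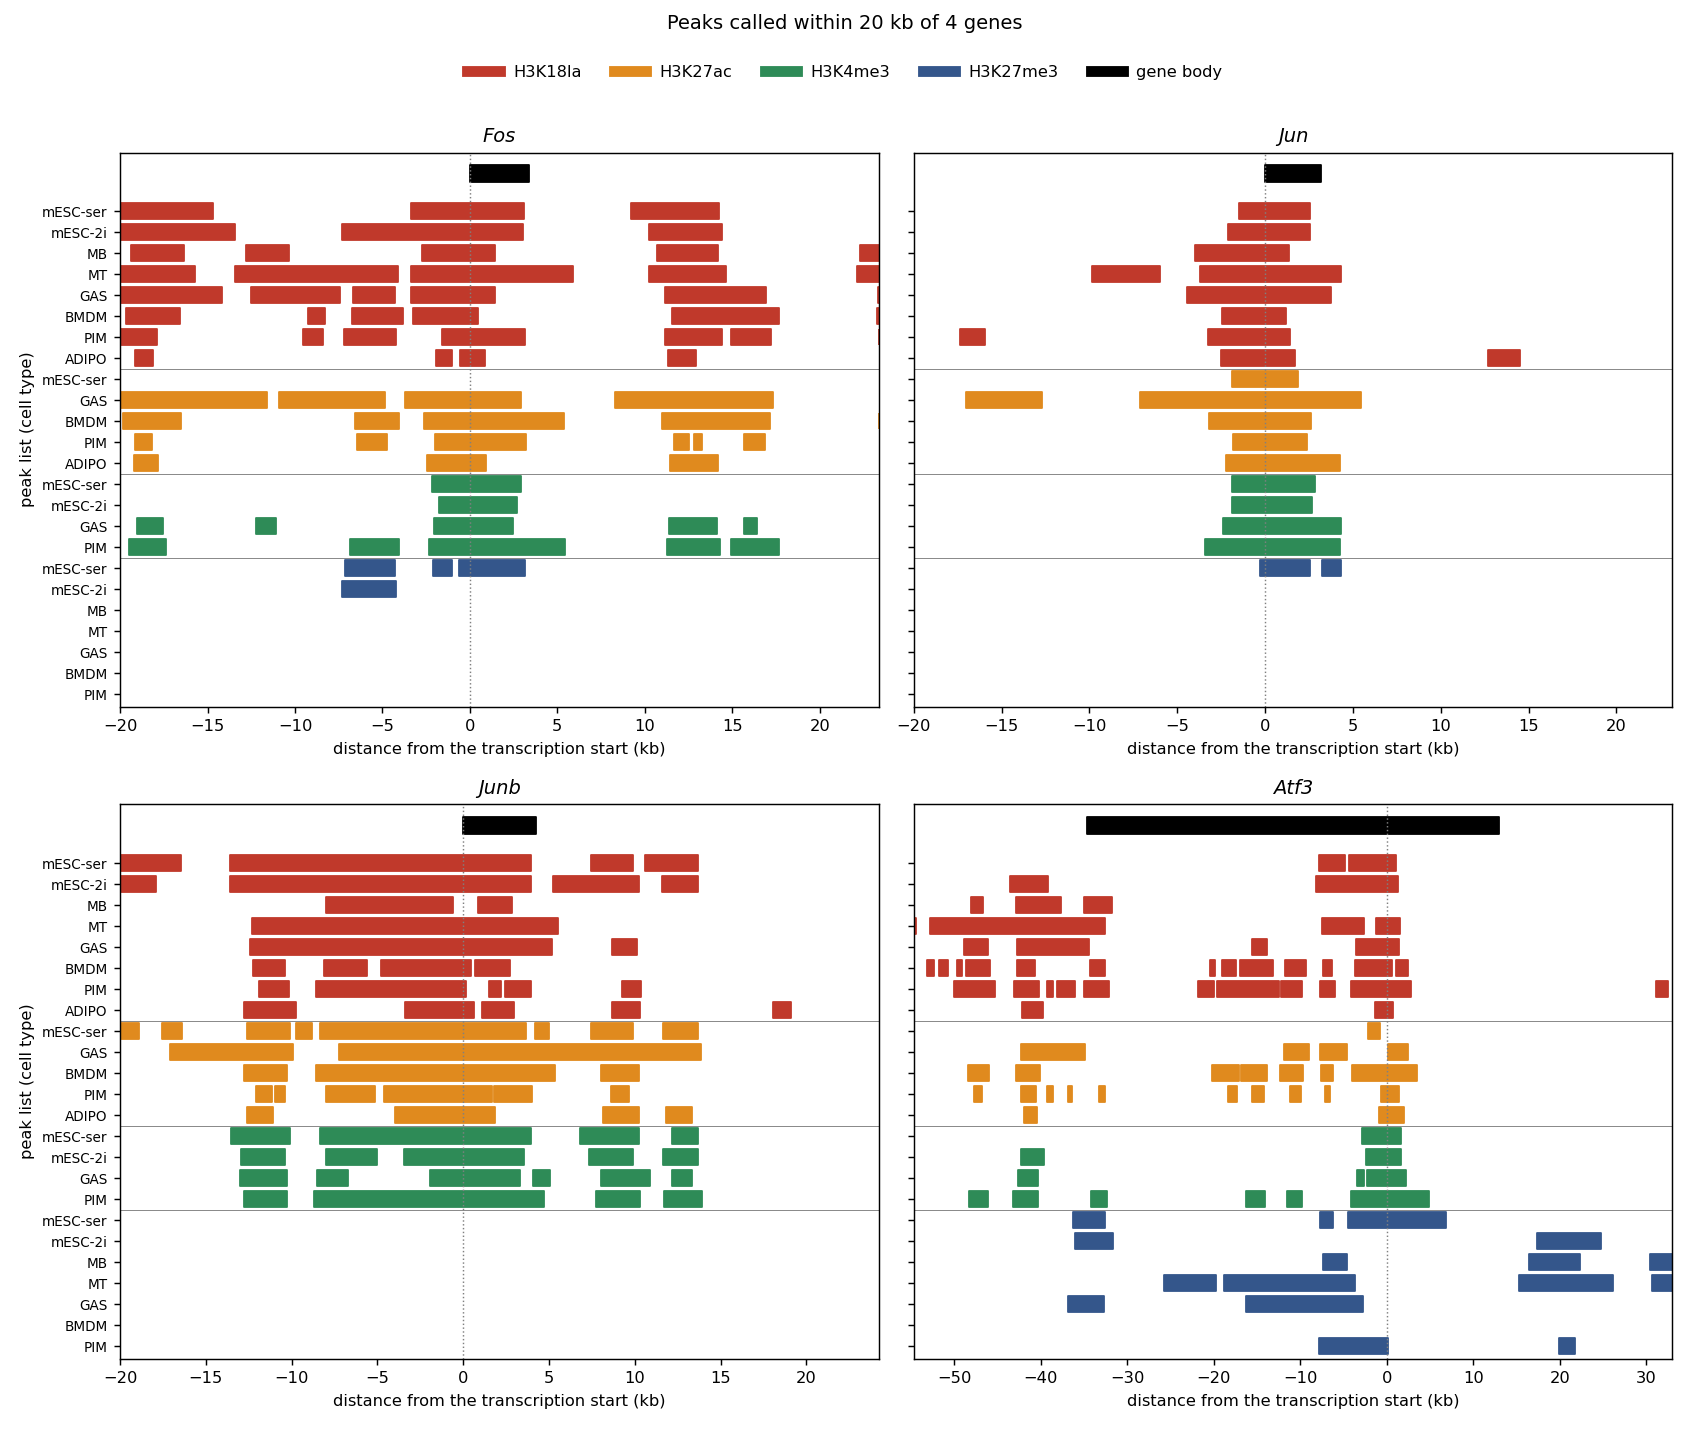
Peaks called within 20 kb of Fos, Jun, Junb and Atf3 (horizontal axis: distance from the transcription start in kb, cut at the 20 kb limits) in the 24 lists (rows, coloured by mark), with the gene body in black. At Fos all 8 H3K18la rows have a block near 12 kb and near -19 kb, and the mESC-ser H3K27ac row is empty.

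Other genes of the pathway were read beside a mean over the lists of 31.8% of all promoters called with H3K18la and 21.7% with H3K27me3, and their difference from the 10 genes above was not tested. Of 10 other AP-1 and related bZIP genes, H3K18la was called at 47 of 80 combinations (58.8%), with between 3 genes in MB and 9 in PIM, where Atf2 was the gene without a peak. None was called in every list. Of 17 other immediate early genes it was called at 98 of 136 combinations (72.1%), in every list at Ier3, Dusp1, Klf2, Klf6, Zfp36 and Myc, and in none at Egr4 and Npas4, the latter a gene induced in neurons. Egr4 had H3K27me3 in all 7 lists, and 40 of 119 combinations of this group had it. Among 11 upstream regulators, such as Srf and the MAP kinase genes, H3K18la was called at 54 of 88 combinations and H3K27me3 at 6 of 77. The regulator called with H3K18la in every list was Elk4, an SRF partner, and Mapk8 was called in none.

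Across the 24 lists, the 5 genes whose promoter coverage was most like the mean of the 10 were Atp6v1a (Pearson r 0.946), Naa50 (0.946), Nfe2l2 (0.945), Plec (0.931) and Cited2 (0.931), given as a description, since lists of a mark share much of their pattern. Among the 10, Ier2 and Junb were most alike (r 0.962) and Atf3 and Jund least (0.242).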

How the data were processed

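CUT&Tag for H3K18la, H3K27ac, H3K4me3 and H3K27me3 was analysed in 41 mouse samples in 24 groups. Per the authors' methods, reads were trimmed (Trim Galore 0.6.6), aligned to mm10 (Bowtie2 2.4.4) and turned into fragment coverage (bedtools 2.30), the coverage of replicates was combined, and peaks were called with SEACR 1.3 (stringent, top 1% of peaks). The deposited signal columns give the total and the maximum coverage of each peak as whole numbers not scaled for depth, so signal was ranked within a list only. Read depth was not analysed here. For stem cells, a list without a named medium was taken as serum from the sample descriptions.

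Peaks on chromosomes 1 to 19 and X were compared with GENCODE M21, whose build is that of the files. A 1-bp overlap with a promoter was a call. Covered shares of H3K18la and H3K27me3 were compared by an exact sign-flip test with Benjamini-Hochberg adjustment over 17724 genes, tested first on simulated data. Motifs were searched on both strands in the GRCm38 genome. Named genes are the 10 members, listed pathway genes in classes of 5 or fewer, and the 5 most similar genes. The 6 other immediate early genes called in every list were named outside this rule, after their values were seen. The downstream and upstream stretches of Fos and the Jun maximum were singled out after their values were seen. Members and lists were chosen with earlier results of these data known. Alternatives were the promoter width, coding starts, overlap, list size, flank, rank measure and leaving out cell types. Python 3.11.15, numpy 2.4.6, pandas 2.3.3 and matplotlib 3.10.9 were used.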

Additional observations from a re-analysis of the deposited data

How the results depend on the processing

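No paired analysis was possible because the peak lists carry no replicate numbers: each group has 1 list, pooled where it had 2 samples, and marks were paired by cell type only. Of 242 comparisons of a value with an alternative, 235 stayed within their limits, which were 1.5 times for a count, 1 SD for a mean or median, and direction and side of the adjusted threshold for a gene. The comparisons for single genes, 120 in all, could leave their limit only by a change of sign or an adjusted p at or under 0.05. The SD of 18.7 points was wide beside a mean of -1.72, so a change of sign could stay within it. The count of 235 is therefore no measure of stability. Within these limits, H3K18la minus H3K27ac changed sign as given above, and the 5000 strongest peaks left 52 H3K18la combinations (65.0%, beside 4.51% to 14.0% of all promoters). With lists cut to equal bases, called combinations fell from 74 to 39 for H3K18la and from 12 to 1 for H3K27me3, while the mean share of all promoters fell from 31.8% to 6.21% and from 21.7% to 4.14%, the members with more H3K18la than H3K27me3 in every cell type from 5 to 1, and H3K18la minus H3K4me3 was -39.2 in place of -5.28 points. The difference between H3K18la and H3K27me3 then fell to 24.8 points at Fosb, 17.4 at Jund and 11.1 at Egr1, and to the values given above at Fos and Ier2, with unadjusted exact p-values of 0.125 to 0.5. With the 5000 strongest peaks, H3K27me3 combinations were 6, the members higher in every cell type 2, and this difference was 32.1 at Fosb, 15.2 at Fosl2 and 22.1 at Egr1. With nuclei only it was 51.5 at Atf3 and 49.4 at Fosl2, and without mESC-ser it was 43 at Atf3 (unadjusted exact p 0.0312). Leaving out a cell type, H3K27me3 combinations ranged from 7 (without mESC-ser) to 12. The mean difference was above 0 at all 10 members with the other promoter widths, starts and list sizes, with nuclei only and without each cell type. With a smallest p of 0.0156, the adjusted test says nothing about stability. Pooled lists carry no replicate error and no depth, so an uncalled promoter shows only that no region there reached the top 1%.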

Other observations

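At some genes other than Jun the position of highest H3K18la signal recurred between lists. At Fosb it lay within 10 bp of -809 bp in 4 of the 6 lists with a peak, and at Egr1 within 10 bp of -1263 bp in 4 of 8. At Jund it lay at -2305 bp in mESC-ser, -2302 bp in mESC-2i and -2299 bp in GAS, and at Fos at -1580 bp in both stem cell lists and at -1459 and -1457 bp in MB and MT. In ADIPO the H3K18la promoter peaks that ranked lowest by total signal were those of Fos (percentile 26.7) and Atf3 (31.1), beside 88.3 at Jun in the same list.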
